A study of Mus musculus with 6 samples.

Results

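The mRNA levels of 9 genes of neurotrophic signalling and activity-regulated secretion were measured in the hippocampus of wild-type mice and of mice with an altered glutamate transporter. The genes were taken by symbol from the deposited gene table and are 9 of its 54532 genes. They are 2 ligands (Bdnf and Ntf3), 3 receptors (Ntrk2, Ntrk3 and Ngfr) and 4 secreted factors (Vgf, Scg2, Nptx2 and Inhba), and all 9 passed the filter on low values, which kept 20952 genes. The study compared 3 wild-type mice (WT1 to WT3) with 3 mice labelled TG (TG1 to TG3), in which Slc1a2, coding for the astrocytic glutamate transporter GLT-1, holds the substitutions G82R and L85P. Per the study's methods the changes were knocked in with CRISPR/Cas9 on a C57BL/6N background, so they are present in every cell that carries the allele. The sources used here do not tie an age, a sex or a copy number of the allele to single libraries, and they name no treatment. The labels give the tissue as hippocampal, and the RNA was sequenced in bulk, so fewer cells of a type and less RNA per cell cannot be told apart.

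Neurotrophins are secreted growth factors that bind Trk receptor tyrosine kinases and the unrelated receptor p75. BDNF acts mainly through TrkB and neurotrophin-3 mainly through TrkC, and in the hippocampus BDNF is made by excitatory neurons and is known for its part in synaptic plasticity and for its induction by seizures. Many neurons also release peptides and proteins from dense-core vesicles, and the genes for several of these are switched on by neuronal activity through transcription factors such as CREB, which binds the cyclic AMP response element.

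None of the 9 genes passed the test between TG and WT mice, at an adjusted p or at an unadjusted p under 0.05. Both ligands had lower means in TG mice, all 3 receptors had higher means, and of the 4 secreted factors 3 had higher means and Scg2 a lower one. The estimates ran from a log2 fold change (TG over WT) of -0.20 for Bdnf to 0.53 for Ngfr, and the 95% interval of each included 0. The adjusted p (limma, Benjamini-Hochberg) lay between 0.7886 and 0.8799. Over all 20952 genes tested, 2 genes or 0.00955% had an adjusted p under 0.05, and 1238 genes or 5.91% had an unadjusted p under 0.05, 3.13% of the tested genes with a higher and 2.78% with a lower mean in TG mice. The median size of the log2 difference was 0.19 over the 9 genes and 0.15 over all genes tested.

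**Figure D1:**
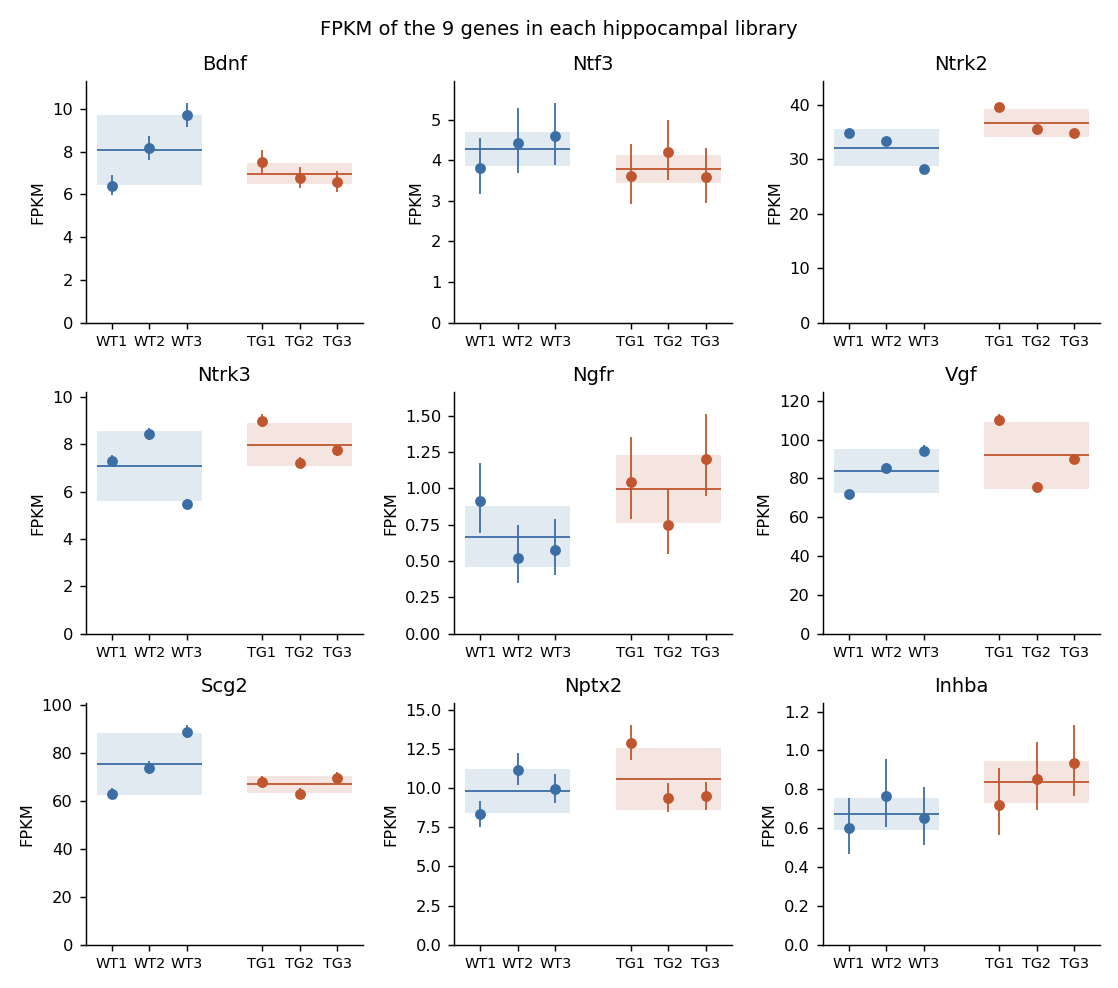
FPKM of each of the 9 genes in each library (points), with the exact 95% Poisson interval of its reads as a vertical bar, the group mean as a line and the group SD as a shaded band (3 libraries a group). For 8 genes the WT (blue) and TG (red) points overlap in range, and for Ntrk2 the lowest TG point lies just above the highest WT point.

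The levels of the 9 genes are given as FPKM, fragments counted on a gene per base of its length and per mapped fragment of the library, where the length is that of all annotated exons of the gene joined, so that levels of different genes rest on this choice of length. Vgf and Scg2 were among the most abundant mRNAs of the tissue, with means of 87.9 and 71.0 FPKM over the 6 libraries, above 98.0% and 97.2% of the tested genes. Ntrk2 followed with 34.4 FPKM. Nptx2 (10.2 FPKM), Ntrk3 (7.54 FPKM) and Bdnf (7.52 FPKM) lay in a middle range, and Ntf3 stood at 4.05 FPKM. Ngfr (0.833 FPKM) and Inhba (0.755 FPKM) were the lowest, above 33.9% and 32.6% of the tested genes. The ranges over the 6 libraries did not overlap between Scg2 and Ntrk2, between Ntrk2 and Nptx2, between Bdnf and Ntf3, or between Ntf3 and Ngfr. Vgf exceeded Scg2, and Nptx2 exceeded Ntrk3, in 6 of 6 libraries although their ranges overlapped. Ntrk3 and Bdnf, whose means differed by a factor of 1.003, stood with Ntrk3 above Bdnf in 5 of 6 libraries, with overlapping ranges, and Ngfr exceeded Inhba in 3 of 6. Neither pair differed beyond its spread. Ntrk2, Ntrk3 and Bdnf have more exon than their longest transcripts (8744, 19703 and 4266 bases). On the length of the longest transcript, computed after the values were seen, their mean levels were 75.8, 11.54 and 10.96 FPKM. This puts Ntrk2 above Scg2 (71.0 FPKM) and both Ntrk3 and Bdnf above Nptx2 (10.2 FPKM), with the other genes in the same order. Ntf3 and Vgf also have more exon than their longest transcripts (1483 and 2834 bases), and on these lengths stood at 4.68 and 92.2 FPKM. The files hold 1 value a gene, so splice forms such as the truncated forms of TrkB and TrkC, which lack the kinase, are added to the full-length ones.

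Of promoter windows of 300 bases (250 before and 50 after a start site; RefSeq, GRCm38.p6), 6 of the 9 genes (all but Vgf, Nptx2 and Ntrk3) had 13, of which Bdnf, a gene with several promoters, had 7. The cyclic AMP response element TGACGTCA, which reads the same on both strands, stood in 1 of the 13 windows, that of Scg2, and in 1.79% of all 32817 windows. The shorter element TGACG, searched on both strands and contained in the full element, stood in 2 of the 13 windows, those of Scg2 and of the Bdnf start site at chr2 position 109692436, and in 20.8% of all windows. Both stretches are shown, from 5′ to 3′ on the gene's strand, because they come from the windows, of the 13 searched, that hold either element. Capitals mark the matched letters. The Bdnf stretch (chr2:109692356-109692435, plus strand) ends at the base before the start site, and the Scg2 stretch (chr1:79440076-79440105, minus strand) runs from 79 to 50 bases before it and overlaps an exon of another annotated transcript.
Bdnf: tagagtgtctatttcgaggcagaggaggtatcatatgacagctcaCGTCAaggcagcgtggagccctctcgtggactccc
Scg2: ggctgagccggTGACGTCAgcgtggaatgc

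Bdnf (ENSMUSG00000048482) spans chr2:109674700-109727007 on the plus strand of GRCm38 and has 11 annotated transcripts, all coding. Its level was 6.41, 8.16 and 9.69 FPKM in WT1, WT2 and WT3, and 7.51, 6.76 and 6.59 FPKM in TG1, TG2 and TG3. The 3 TG libraries lay below the WT mean but inside the WT range, since WT1 was the lowest of all 6 libraries and WT3 the highest. The means were 8.09 ± 1.64 FPKM in WT and 6.95 ± 0.491 FPKM in TG mice (SD, n = 3 each). The log2 fold change was -0.20 with an SE of 0.149, a fold of 0.872 (95% interval 0.684 to 1.11), and the adjusted p was 0.7895 (limma). The spread among WT mice, a coefficient of variation of 20.3%, was well above the 3.49% that counting error gives at 737 to 1128 reads, while TG mice varied by 7.06%. Leaving out WT1 gave a log2 fold change of -0.35 and an unadjusted p of 0.0215 (adjusted p = 0.7005, limma). Leaving out WT3 gave -0.058, so the size of the Bdnf difference turned on which WT mice were counted.

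Ntf3 (ENSMUSG00000049107; chr6:126101412-126166910, minus strand), which encodes neurotrophin-3, was the less abundant ligand, at 98 to 148 reads a library. Its level was 3.82, 4.44 and 4.61 FPKM in the WT libraries and 3.61, 4.20 and 3.59 FPKM in the TG libraries. As for Bdnf, the 3 TG values lay below the WT mean and overlapped the WT range. The means were 4.29 ± 0.418 and 3.80 ± 0.346 FPKM (SD, n = 3 each), and the log2 fold change was -0.17 (95% interval -0.44 to 0.10; adjusted p = 0.7895, limma). The coefficients of variation of 9.74% in WT and 9.11% in TG mice were close to the counting error of 9.07%.

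Ntrk2 (ENSMUSG00000055254; chr13:58806569-59133970, plus strand) encodes TrkB, the receptor of BDNF, which astrocytes as well as neurons express. Its level was 34.8, 33.4 and 28.2 FPKM in the WT libraries and 39.6, 35.5 and 34.8 FPKM in the TG libraries. Ntrk2 was the 1 gene of the 9 whose groups did not overlap, by the small gap between WT1 and TG3 (34.76 and 34.83 FPKM), while 6.35% of the tested genes stood apart with TG higher and 5.71% with TG lower. The means were 32.1 ± 3.45 and 36.6 ± 2.57 FPKM (SD, n = 3 each). The log2 fold change was 0.19 (95% interval -0.04 to 0.42), with an unadjusted p of 0.0875 and an adjusted p of 0.7886 (limma). With 10187 to 12398 reads a library, counting error gives a coefficient of variation of 0.929%, against 10.8% between WT and 7.03% between TG mice.

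Ntrk3 (ENSMUSG00000059146; chr7:78175959-78738012, minus strand) encodes TrkC, the receptor of neurotrophin-3. Its level was 7.31, 8.44 and 5.50 FPKM in the WT libraries and 9.01, 7.22 and 7.75 FPKM in the TG libraries. The groups overlapped, with WT3 the lowest and TG1 the highest library, as for Ntrk2. The means were 7.08 ± 1.49 and 7.99 ± 0.917 FPKM (SD, n = 3 each). The log2 fold change was 0.19 (95% interval -0.20 to 0.57; adjusted p = 0.7895, limma).

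WT3 and TG1, the lowest and highest libraries of both Trk receptor genes, were also the libraries that deviated most in the longest and shortest genes. Ntrk2 and Ntrk3 have 19292 and 30170 bases of exon in the table. Among the 1221 genes with a mean of at least 1 FPKM and 10000 bases or more, the median log2 deviation from a gene's own mean was -0.18 in WT3 and 0.10 in TG1, and between 0.002 and 0.042 in the other libraries. Among the 1141 such genes shorter than 1000 bases, the order was turned, with 0.22 in WT3 and -0.19 in TG1. When each library's trend on gene length was taken out, a step chosen after these values were seen, the log2 fold change of Ntrk2 went from 0.19 to 0.079 (unadjusted p = 0.235, limma) and that of Ntrk3 from 0.19 to 0.042 (unadjusted p = 0.621), and the 2 groups overlapped for Ntrk2. The same step took Ntf3, the shortest of the 9 genes at 1714 bases, from -0.17 to -0.085 and Scg2 from -0.16 to -0.10. It took Nptx2 from 0.098 to 0.15, Vgf from 0.13 to 0.16 and Bdnf from -0.20 to -0.23. TG1 was also the highest library for Vgf and Nptx2, which have 2973 and 2536 bases. The part of gene length in the values of single genes was not tested.

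**Figure D2:**
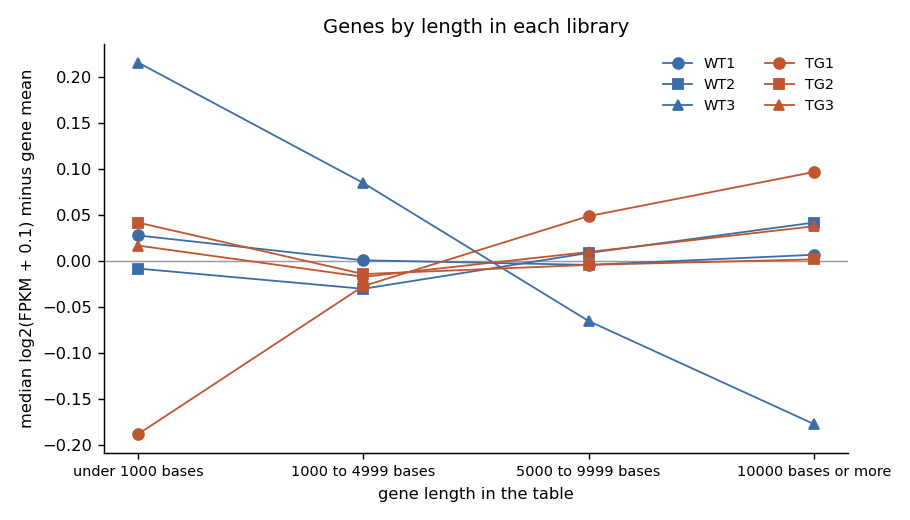
Median deviation of genes from their own mean over the 6 libraries, in log2(FPKM + 0.1), for genes of 4 length classes (horizontal axis, bases of exon, genes with a mean of at least 1 FPKM), with WT libraries in blue and TG libraries in red. WT3 falls from 0.22 in the shortest to -0.18 in the longest class and TG1 runs from -0.19 to 0.10, while the other 4 libraries stay near 0.

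Ngfr (ENSMUSG00000000120; chr11:95568818-95587735, minus strand) encodes p75, which binds all neurotrophins and is made in the adult brain mainly by basal forebrain cholinergic neurons and by cells of vessels and meninges. Its level was 0.910, 0.521 and 0.573 FPKM in the WT libraries and 1.05, 0.745 and 1.21 FPKM in the TG libraries. The 3 TG values lay above the WT mean of 0.668 ± 0.211 FPKM, but TG2 lay below WT1. The mean in TG mice was 0.998 ± 0.234 FPKM (SD, n = 3 each). The estimate was the largest of the 9, a fold of 1.44 on the log2(FPKM + 0.1) scale, with a 95% interval of 0.933 to 2.22 (unadjusted p = 0.0878, adjusted p = 0.7886, limma). These values rest on 29 to 75 reads a library, where counting error alone gives a coefficient of variation of 14.1%, against 31.6% between WT and 23.4% between TG mice. The unadjusted p of Ngfr was 0.0277 without WT1, its highest WT library, and 0.0419 without TG2, its lowest TG library. The adjusted p in these fits was 0.7005 and 0.8116. Without any other single library the unadjusted p lay between 0.184 and 0.245 (limma).

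The sums of some marker lists of other cells were highest in the same libraries as Ngfr, though not each marker of these lists was. Of the 14 marker lists, those named here were picked because their sums matched. Its 3 highest libraries, WT1, TG1 and TG3, were also the 3 highest for the summed FPKM of 6 pericyte and smooth muscle markers (94.7, 91.1 and 81.2, against 63.3 to 66.6 in the other 3) and of 6 markers of meningeal fibroblasts (25.9, 19.8 and 18.4, against 12.4 to 14.5). The order within the 3 differed, with Ngfr highest in TG3 and both sums highest in WT1. Single markers went both ways. Acta2 was 15.7 to 23.1 FPKM in these 3 libraries and 7.24 to 8.73 FPKM in the other 3. Kcnj8 was lowest in TG3 (1.39 FPKM), Rgs5 was lower in TG3 than in WT3 (23.0 and 23.4 FPKM), and Igf2 was highest in TG2 (0.604 FPKM). None of these markers was at 0 in all libraries. The part of these cells in the Ngfr values was not tested.

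Vgf (ENSMUSG00000037428; chr5:137026392-137033351, plus strand), a neuropeptide precursor induced by BDNF, was the most abundant of the 9 genes. Its level was 71.8, 85.3 and 94.4 FPKM in the WT libraries and 110.1, 75.7 and 90.2 FPKM in the TG libraries. TG1 lay above all WT libraries and TG2 below 2 of the 3. The means were 83.8 ± 11.3 and 92.0 ± 17.3 FPKM (SD, n = 3 each), and the log2 fold change was 0.13 (95% interval -0.24 to 0.49; adjusted p = 0.8445, limma). Without TG1 it was -0.012.

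Scg2 (ENSMUSG00000050711; chr1:79434669-79440120, minus strand) encodes secretogranin II, a granin of dense-core vesicles and the precursor of secretoneurin. Its level was 62.9, 73.8 and 88.7 FPKM in the WT libraries and 67.7, 63.0 and 69.6 FPKM in the TG libraries. The 3 TG values were close together (coefficient of variation 5.10%, against 17.2% in WT mice) and lay below the WT mean, yet inside the WT range. The means were 75.1 ± 12.9 and 66.8 ± 3.40 FPKM (SD, n = 3 each), and the log2 fold change was -0.16 (95% interval -0.45 to 0.14; adjusted p = 0.7895, limma). As for Bdnf, WT1 was the lowest and WT3 the highest library. Without WT1 the log2 fold change of Scg2 was -0.28 with an unadjusted p of 0.0425 (adjusted p = 0.7005, limma). Without WT3 the log2 fold change was -0.031.

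Nptx2 (ENSMUSG00000059991; chr5:144545902-144557478, plus strand) encodes the neuronal pentraxin Narp, which gathers AMPA receptors at excitatory synapses. Its level was 8.34, 11.2 and 9.96 FPKM in the WT libraries and 12.9, 9.37 and 9.48 FPKM in the TG libraries. TG1 was the highest library, as for Vgf, and the other 2 TG libraries lay below the WT mean. The means were 9.83 ± 1.43 and 10.6 ± 1.98 FPKM (SD, n = 3 each). The log2 fold change was 0.098 (95% interval -0.27 to 0.46; adjusted p = 0.8799, limma), and it was -0.050 without TG1.

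Inhba (ENSMUSG00000041324; chr13:16011851-16031621, plus strand) encodes the inhibin beta-A chain, 2 of which form activin A. Its level was 0.601, 0.765 and 0.652 FPKM in the WT libraries and 0.722, 0.856 and 0.936 FPKM in the TG libraries. The 3 TG values lay above the WT mean, and TG1 lay below WT2. The means were 0.673 ± 0.0842 and 0.838 ± 0.108 FPKM (SD, n = 3 each) on 71 to 108 reads a library, and the log2 fold change was 0.28 (95% interval -0.18 to 0.73; adjusted p = 0.7895, limma).

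**Figure D3:**
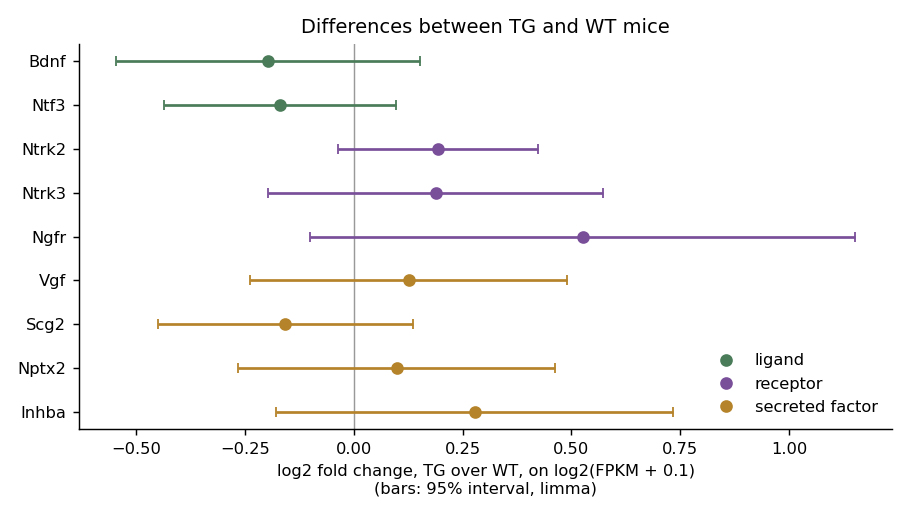
Log2 fold change of each gene, TG over WT, on log2(FPKM + 0.1) (points), with the 95% interval from limma (bars), for ligands in green, receptors in purple and secreted factors in ochre. All 9 intervals cross 0, and that of Ngfr, one of the genes with the fewest reads, is the widest.

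The 4 secreted factors did not share 1 pattern over the libraries. TG1 was the highest library for Vgf and Nptx2, as for Ntrk2 and Ntrk3, WT3 was the highest for Scg2, as for Bdnf and Ntf3, and TG3 was the highest for Inhba, as for Ngfr. WT1 was the lowest library for Vgf, Scg2, Nptx2 and Inhba and for Bdnf, so that 7 of the 9 genes lay below their own mean there. Ratios of genes within a library were also examined, 5 in all and chosen after the values were seen. The ratio of Bdnf to Ntrk2, ligand to receptor, was 0.184 for WT1, 0.244 for WT2 and 0.344 for WT3, and the TG libraries, at 0.190, 0.190 and 0.189, lay at the low end of the WT range. The ratio of Vgf to Scg2, the 2 precursors of dense-core vesicles, was 1.63 in TG1, 1.20 in TG2 and 1.30 in TG3, against 1.14, 1.16 and 1.06 in WT1 to WT3. It was the 1 of the 5 whose groups did not overlap, and the smallest p that an exact permutation test can give for 3 against 3 libraries is 0.1.

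**Figure D4:**
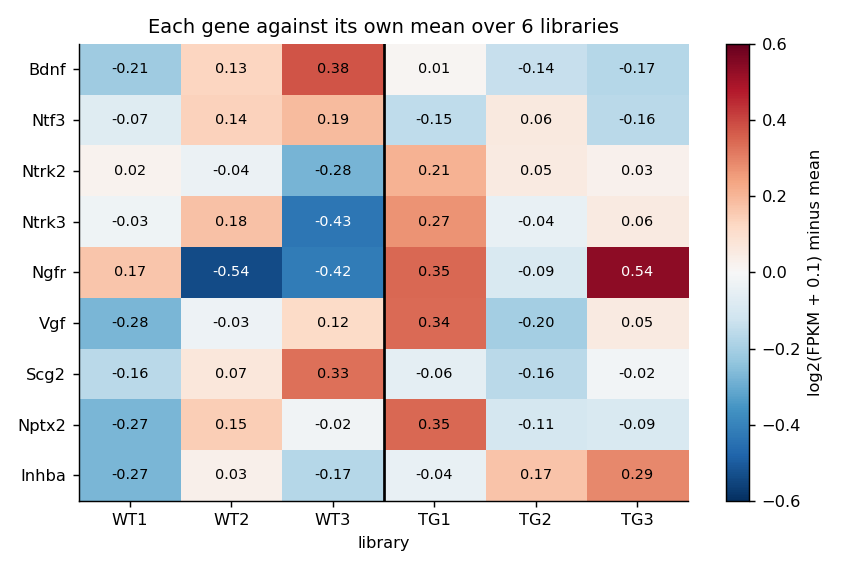
Each gene (row) in each library (column) as log2(FPKM + 0.1) minus the gene's mean over the 6 libraries, red above and blue below, where the black line parts WT from TG libraries. The column of WT1 is below 0 for 7 of 9 genes, and WT3 is high for Bdnf, Ntf3 and Scg2 and low for Ntrk2, Ntrk3 and Ngfr.

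The genes around these 9 were described through 6 lists with 121 tested genes, none of which passed at an adjusted p under 0.05 (the smallest was 0.7856, limma). With an unadjusted p under 0.05, 6 of the 121 had a higher and 1 a lower mean in TG mice, beside 3.13% and 2.78% of all genes tested. The groups did not overlap for 11 of the 121 with TG higher and 4 with TG lower, beside 6.35% and 5.71% of all genes tested. Of the other ligands, processing enzymes and receptors of neurotrophins, 0 of 15 tested genes reached that level. Furin, a convertase that cuts pro-neurotrophins, stood at 4.73, 4.98 and 3.96 FPKM in the WT libraries and 5.78, 5.36 and 5.03 FPKM in the TG libraries (log2 fold change 0.24, unadjusted p = 0.0676). Bex3, whose product binds p75, was the most abundant gene of the list and had a log2 fold change of -0.14.

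Beside 5.91% of all genes tested, 1 of 44 tested genes downstream of the Trk receptors had an unadjusted p under 0.05. This was Crkl, an adaptor of Trk signalling, at 13.1, 11.2 and 11.96 FPKM in the WT libraries and 15.2, 13.2 and 15.3 FPKM in the TG libraries (log2 fold change 0.26, SE 0.0911, unadjusted p = 0.0219). Without TG1, and without TG1 and TG2 together, 0 of the 44 genes had an unadjusted p under 0.05. Map2k5, the kinase that activates ERK5, was 10.8 to 11.3 FPKM in the WT libraries and 9.89 to 10.1 FPKM in the TG libraries (log2 fold change -0.14, unadjusted p = 0.0654). Of the 44 genes, 30 had a log2 fold change above and 14 below 0, with a median of 0.069, beside -0.002 over all genes tested. With the trend on gene length taken out, the medians were 0.038 and 0.005.

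Of the granins and dense-core vesicle proteins, 0 of 16 genes had an unadjusted p under 0.05, and the median log2 fold change was -0.013. Cpe, the carboxypeptidase that trims peptide precursors, was the most abundant of them, at 1053 to 1355 FPKM in the WT libraries and 1019 to 1082 FPKM in the TG libraries (log2 fold change -0.15, unadjusted p = 0.337). Pcsk1, the convertase PC1/3, had the smallest unadjusted p among those with a higher mean, 0.169, at a log2 fold change of 0.17. The pentraxins and their partners gave 0 of 6 genes, with log2 fold changes of 0.074 for Nptx1 and -0.049 for the pentraxin receptor gene Nptxr. C1ql3, a synaptic C1q-like protein, had -0.14, and its TG values lay below all WT values, as for 5.71% of all genes tested. Without TG1, Nptxr had an unadjusted p under 0.05 with a lower mean in TG mice, the 1 gene of that list to do so, beside 1.79% of all genes tested in that fit.

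In the activin and follistatin list, 2 of 16 genes had an unadjusted p under 0.05, in opposite directions. Of all genes tested, 3.13% had a higher and 2.78% a lower mean in TG mice at that level. Tgfbr3 (betaglycan, the co-receptor of inhibin) was at 3.74, 3.60 and 3.35 FPKM in the WT libraries and 4.45, 5.39 and 4.14 FPKM in the TG libraries (log2 fold change 0.37, SE 0.120, unadjusted p = 0.0166). Inha, the inhibin alpha chain, which pairs with the Inhba product to form inhibin A in place of activin A, was at 9.39, 11.9 and 11.3 FPKM in the WT libraries and 7.93, 9.95 and 8.56 FPKM in the TG libraries (log2 fold change -0.30, SE 0.122, unadjusted p = 0.0424). The TG2 value of Inha lay above WT1, so its groups overlapped. Those of Tgfbr3 did not, as for 6.35% of all genes tested with TG higher. Inha no longer had an unadjusted p under 0.05 without TG1, without WT3, without TG1 and TG2 together, or with the trend on gene length taken out, and Tgfbr3 lost it without TG1 and TG2 together. Acvr1b, a type I activin receptor and the most abundant gene of the list, had a log2 fold change of 0.10.

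The list of other activity-regulated genes held 4 of the 6 partner genes with a higher mean at an unadjusted p under 0.05. Of its 24 genes 19 had a log2 fold change above 0 and 5 below 0, the lowest at -0.29. None of the 5 had an unadjusted p under 0.05 (limma). Over all genes tested, 3.13% had a higher and 2.78% a lower mean at that level. The median log2 fold change was 0.20 in the list and -0.002 over all genes tested. Fosl2, a Fos-family factor of AP-1, was at 6.34, 6.54 and 6.30 FPKM in the WT libraries and 9.12, 7.65 and 8.50 FPKM in the TG libraries (log2 fold change 0.39, SE 0.0867, unadjusted p = 0.00257). Arc, a synaptic immediate early gene, was at 46.7, 64.9 and 60.3 FPKM in the WT libraries and 91.2, 62.9 and 86.7 FPKM in the TG libraries (log2 fold change 0.48, SE 0.174, unadjusted p = 0.0266), with TG2 inside the WT range. Nr4a2, a nuclear receptor, and Per1, a clock gene, each had a log2 fold change of 0.29 (unadjusted p = 0.0327 and 0.0258, limma). Their groups did not overlap, as for 6.35% of all genes tested with TG higher. Fos itself, at a log2 fold change of 0.33, and Egr1, at 0.26, had unadjusted p-values of 0.164 and 0.0789 (limma). Both were named after their values were seen. Rasgrp1, an activator of Ras and the most abundant gene of the list, had a log2 fold change of 0.068, and Rheb, a GTPase that activates mTORC1, one of -0.14 (unadjusted p = 0.159), the smallest p on the lower side. Without TG1 the list held 1 such gene, Fosl2, beside 2.51% of all genes tested in that fit. Without WT3 it held Fosl2, Arc and Egr2 (2.09% of all genes), and without TG1 and TG2 together it held Fosl2 and Egr1 (1.99% of all genes). None of the list had an adjusted p under 0.05 in these fits (limma).

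**Figure D5:**
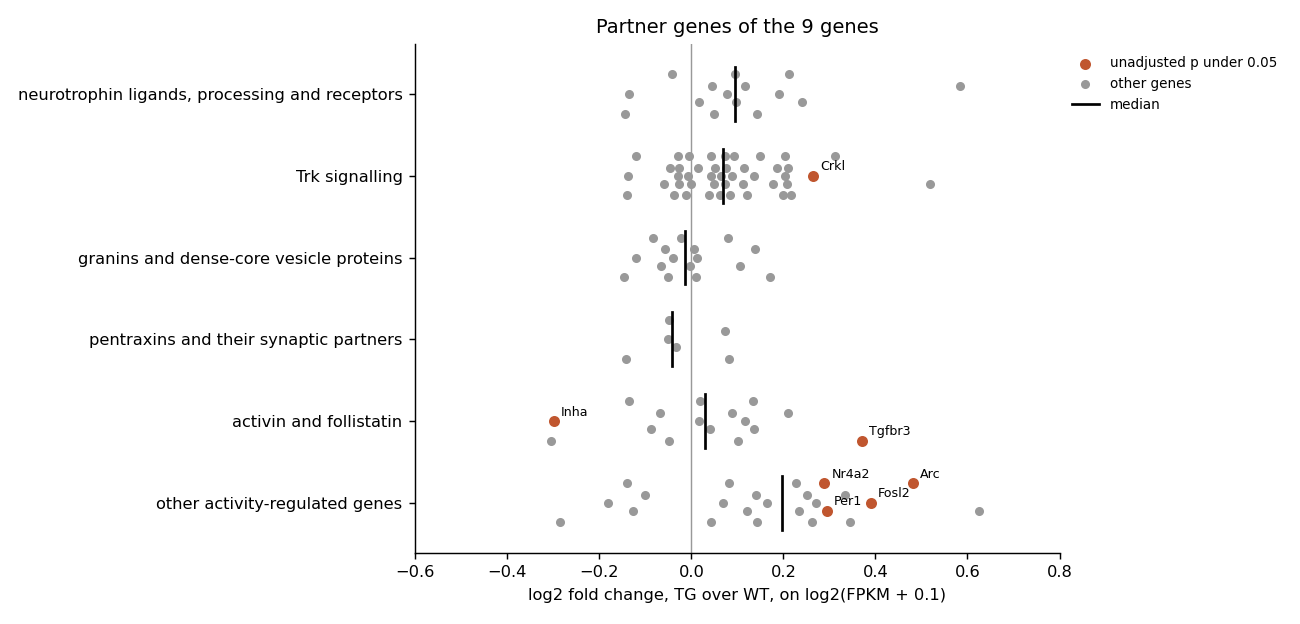
Log2 fold change, TG over WT, on log2(FPKM + 0.1), of the 121 tested partner genes in 6 lists (grey points), with genes at an unadjusted p under 0.05 in red and named, and the median of each list as a black bar. The medians lie between -0.041 for the pentraxin list and 0.20 for the other activity-regulated genes.

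Some facts of the libraries touch these values. Reads on genes ran from 16081281 to 18751057 a library. The Slc1a2 mRNA itself was 193.1 ± 13.8 FPKM in WT and 215.5 ± 7.61 FPKM in TG mice (SD, n = 3 each). Its log2 fold change was 0.16 (adjusted p = 0.7886, limma). A changed codon does not show in a gene total, so this level does not check the labels. The study reported from Western blots that GLT-1 protein was almost lost from the TG hippocampus, which an mRNA level does not measure. Markers of excitatory neurons, led by Nrgn, summed to 1630 to 1860 FPKM over the 6 libraries and those of astrocytes, led by Aldoc, to 449 to 508 FPKM, so the defining markers of both were present, and the sums of all 14 marker lists overlapped between the groups. Of the 6 dentate granule cell markers, 4 had a lower mean in TG mice, 2 of them with an unadjusted p under 0.05, and 2 had a higher mean, and the 6 summed to 105.5 to 129.6 FPKM in the WT and 99.3 to 111.2 FPKM in the TG libraries. Of the 5 tested ependymal markers, 3 had a lower mean in TG mice with an unadjusted p under 0.05. The share of all genes tested at that level with a lower mean was 2.78%. All 6 oligodendrocyte markers had a lower mean in TG mice, 1 of them with an unadjusted p under 0.05, and TG1 had the lowest sum, 415.1 FPKM against 530.0 to 679.7 FPKM in the other libraries. Other lists held markers with a higher mean at an unadjusted p under 0.05, beside 3.13% of all genes tested. Excitatory neurons, oligodendrocyte precursors, microglia and endothelial cells had 1 each, and choroid plexus had 3. Of the 6 excitatory neuron markers, 5 had a higher mean in TG mice. TG1 and TG2 stood apart in choroid plexus markers, whose 8 genes summed to 1207 and 3819 FPKM, against 57.4 to 81.7 FPKM in the other 4 libraries, mainly through Ttr, the transthyretin gene. Without TG1 and TG2 none of the 9 genes reached an unadjusted p under 0.05, on 1 TG library assumed to vary like the WT libraries.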

How the data were processed

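Hippocampal RNA of 3 WT and 3 TG mice was sequenced, 1 library a mouse by the labels' numbering. Per the study's methods, the authors counted reads per gene with HTSeq and deposited FPKM values, from gene length and mapped reads. The submitters' processing notes name GRCm38 and mm10, and the aligner and the annotation version are not given in the sources used here. The labels and the methods name different RNA and library kits. Gene coordinates and exon lengths of the 9 genes in the file equalled those of GENCODE M21. Reads were recovered from FPKM and gene length, and 100% of values came out whole within 0.05. The library total that the FPKM imply was 15824455 in TG1 and 18722180 in WT3. Their reads on genes were more, 16116117 and 18751057, so this total is not a plain count of mapped reads. In the other libraries it exceeded the reads on genes. How it was set is not given in the sources used here.

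FPKM was tested as log2(FPKM + 0.1) with limma 3.58.1 (lmFit, eBayes with trend; R 4.3.3) over the 20952 genes with a mean of at least 0.1 FPKM, two-sided, with p-values adjusted by Benjamini-Hochberg and called under 0.05. Fold changes on this scale understate changes of low genes. The same code was tested on simulated data. Intervals of single libraries are exact Poisson at 95% and cover counting error only. The p-values set a difference against the spread between these mice, where the variance of each gene is drawn toward that of genes of like level.

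The 9 genes, the 6 partner lists and the 14 marker lists were chosen with earlier results of these data known. Besides the 9 genes, the text names of each partner list the most abundant gene, the gene with the smallest p in each direction and each gene at an unadjusted p under 0.05. Egr1, Egr2 and Fos were added after their values were seen. Some genes of the lists are not reported here. Alternatives covered the pseudocount, the filter, scaling, the variance trend, gene class, voom on recovered reads, a replicate block, a choroid plexus covariate and single libraries left out. The removal of TG1 and TG2 together, and of the trend on gene length (lowess, span 0.3), and levels on the longest transcript, were added after the data were seen.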

Additional observations from a re-analysis of the deposited data

How the results depend on the processing

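Over 19 alternatives, 165 of 169 single-gene values kept their direction and their side of the adjusted threshold, and the smallest adjusted p of any of the 9 genes was 0.657 (limma). The 4 that reversed were small: Vgf was -0.012 without TG1, and Nptx2 was -0.014 without WT1, -0.050 without TG1 and -0.042 without TG1 and TG2 together. Leaving out 1 library gave 0 to 1 genes at an unadjusted p under 0.05 with a higher mean in TG mice (Ngfr, without WT1 or without TG2). It gave 0 to 2 with a lower mean (Bdnf and Scg2, both without WT1). Their adjusted p was 0.7005 without WT1, and that of Ngfr was 0.8116 without TG2 (limma). The share of all genes tested in the fits without WT1 or without TG2 is not given here. These counts thus cannot be set against it. Over the fits with 1 library left out, the log2 fold change ran from -0.35 to -0.058 for Bdnf, 0.10 to 0.25 for Ntrk2 and 0.019 to 0.32 for Ntrk3. It ran from -0.012 to 0.26 for Vgf, -0.050 to 0.20 for Nptx2, -0.28 to -0.031 for Scg2 and 0.39 to 0.74 for Ngfr. The cause was not tested. With a minimum mean of 1 FPKM, Ngfr and Inhba are left out. With the choroid plexus covariate, Scg2 moved from -0.16 to -0.050 and Vgf from 0.13 to 0.24. Without TG1 and TG2 together, Ngfr moved from 0.53 to 0.80, Inhba from 0.28 to 0.43, Ntrk2 from 0.19 to 0.12 and Scg2 to -0.096. With a pseudocount of 1, Ngfr was 0.26 and Inhba 0.14. Ngfr, Inhba and Ntf3 rest on 29 to 148 reads a library.

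The labels give same-numbered WT and TG libraries only a number in common. Their deviations from the group mean correlated at 0.0125, 0.0434 and 0.00314, and those of libraries with different numbers at -0.0274 to 0.0159. Whether same-numbered mice shared a litter or a batch was not tested. With the replicate block, Ntrk2 kept a log2 fold change of 0.19 (adjusted p = 0.785, limma), and 0 of 9 genes had an adjusted or an unadjusted p under 0.05.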

Other observations

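Among 11910 protein-coding genes with a mean of at least 1 FPKM, those most like Bdnf over the 6 libraries, by the root mean square difference of centred log2(FPKM + 0.1), were Gadd45g (0.0328), Etnppl (0.0471) and Etv4 (0.0571), against a root mean square of 0.205 for Bdnf around its own mean. Gadd45g, a gene of the growth arrest and DNA damage family, was at 16.3, 21.1 and 24.5 FPKM in the WT libraries and 19.0, 18.2 and 16.7 FPKM in the TG libraries, with WT1 lowest and WT3 highest as for Bdnf. Those most like Ntrk2, which had the lowest p among the 9, were Cnnm4 (0.0139), Stk24 (0.0145) and Bcl2l13 (0.0209), against 0.145 for Ntrk2 itself. With 6 libraries such likeness is a description of these mice.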
